A study of Homo sapiens with 28 samples.

Results

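The histone cluster genes are the protein-coding genes whose symbols begin with HIST1H, HIST2H, HIST3H or HIST4H in the deposited count table. They were chosen by symbol and gene type alone, with no measured value, and there were 71 of them among 58735 genes. The libraries came from MDA-MB-231 cells, a mesenchymal-like line from a triple-negative breast cancer, and carried either a construct for Tpm2.1, a tropomyosin isoform that lines actin filaments and is a product of the TPM2 gene, or an empty vector (EV). Both lines were grown in medium with serum and puromycin. Apoptotic and non-apoptotic Tpm2.1 cells were collected after 5 hours and after 1, 2 and 4 days in suspension, which made 8 groups. EV cells at the same 4 times made 4 more, and Tpm2.1 and EV cells attached for 6 hours made the last 2 of the 14 groups, with 2 libraries each. Suspension meant ultra-low attachment plates, and the fractions were separated on annexin V beads, which bind the phosphatidylserine that dying cells expose. The labels describe that separation for Tpm2.1 cells only, so the EV suspension groups were taken here as unseparated, with dying and surviving cells together. The study asks which changes go with anoikis, the death of cells that lose their attachment.

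Histones package DNA: H2A, H2B, H3 and H4 form the core particle, and H1 binds the linker DNA between particles. Most mRNAs of the clustered genes are made in S phase, when new chromatin is assembled, and they are the only known animal mRNAs that normally end in a stem-loop and not in a poly(A) tail. The stem-loop binding protein SLBP holds that end, and the U7 small nuclear RNP directs the cut behind it. Polyadenylated transcripts of some cluster genes, which use a signal downstream of the stem-loop, have been described in cells that leave the cell cycle. Here mRNA was taken with poly-T beads per the labels, so the counts cover what those beads retained of each gene and not its whole mRNA.

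The stem-loop was found by its sequence in the gene models of 32 of the 71 genes. It took 6 forms, and they are shown because they differ between the classes. The 17 genes with the commonest form encode H2A, H2B or H3, while all 8 genes whose stem-loop begins with GGCCC encode H4. The examples are from GENCODE transcripts on GRCh38, 5′ to 3′ on the strand of the gene, with the stem-loop in capitals and 5 bases on either side. They lie at chr6:26124664-26124689 (+), chr6:26158582-26158607 (+), chr6:27133510-27133535 (+), chr6:26285126-26285151 (-) and chr6:27139649-27139674 (+).
HIST1H2AC: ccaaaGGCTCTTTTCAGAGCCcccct
HIST1H2BD: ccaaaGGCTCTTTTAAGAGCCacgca
HIST1H2AG: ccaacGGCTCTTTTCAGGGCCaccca
HIST1H4H: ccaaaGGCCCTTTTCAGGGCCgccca
HIST1H4I: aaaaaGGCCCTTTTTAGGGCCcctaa
Annotated transcripts of several of these genes run on past the stem-loop. HIST1H2AC-201 extends 1128 bases beyond it, HIST1H4H-203 extends 1655 bases and HIST2H2BE-201 extends 1729 bases, all in the 3′ untranslated region (UTR).

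The cluster genes also share promoter elements and often lie head to head. RefSeq (GRCh38.p14) gave a promoter for 61 of the 71 genes. In the 250 bases before the start site, on either strand, CCAAT stood in 83.61% of these promoters against 32.01% of all 35116 RefSeq promoters, and TATAAA in 65.57% against 10.72%. The octamer ATTTGCAT stood in 42.62% against 1.63%. It was found in 11 of 14 H2A and 14 of 18 H2B promoters, in 1 of 10 H3 promoters and in 0 of 13 H4 promoters. That H3 promoter, listed for HIST1H3D, is the same stretch as the promoter of HIST1H2AD. The promoters counted were therefore not all distinct. There were 12 head-to-head pairs with under 1000 bases between them, 11 of which joined an H2A gene to an H2B gene. HIST1H2BC and HIST1H2AC, for example, lie 218 bases apart on chromosome 6, and HIST2H2BE and HIST2H2AC lie 322 bases apart on chromosome 1. The 150 bases before the start sites of both members of the first pair, and of HIST1H4I, are shown with the 3 motifs in capitals on either strand, because the first 2 overlap and share 1 octamer while the third has none. They are chr6:26124022-26124171 (+), chr6:26123927-26124076 (-) and chr6:27139132-27139281 (+). RefSeq start sites are not always those of the counted gene models. The HIST1H4I stretch lies wholly inside its counted model, chr6:27138588-27139881, and the model of HIST1H2AC begins within its stretch, at 26124145.
HIST1H2AC: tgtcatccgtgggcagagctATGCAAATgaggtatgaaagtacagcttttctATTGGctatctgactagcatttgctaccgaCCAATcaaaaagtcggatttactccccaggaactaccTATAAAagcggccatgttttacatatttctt
HIST1H2BC: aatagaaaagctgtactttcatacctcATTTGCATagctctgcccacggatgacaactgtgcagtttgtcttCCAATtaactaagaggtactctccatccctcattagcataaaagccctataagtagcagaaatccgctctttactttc
HIST1H4I: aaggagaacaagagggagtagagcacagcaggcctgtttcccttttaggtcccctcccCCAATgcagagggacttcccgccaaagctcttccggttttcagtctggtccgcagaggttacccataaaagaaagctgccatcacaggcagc
A motif match describes letters and does not show that a factor binds there.

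Library totals ran from 13043529 to 27416335 counts, so a gene at 0 could have had up to 0.109 to 0.23 CPM (counts relative to the TMM-scaled library total) per library at a floor of 3 counts. TPM2 checked the labels: it had 2461 to 7861 CPM in the Tpm2.1 libraries and 22.7 to 46.1 CPM in the EV libraries. The MDA-MB-231 markers VIM, CD44, EGFR, AXL, MSN and CAV1 were present in every library, each at 120 CPM or more, whereas the luminal markers PGR and CDH1 and the immune markers PTPRC, CD3E and LYZ did not exceed 0.809 CPM. Of the other luminal and immune markers, ESR1 reached 2.41, CD14 4.65, GATA3 5.74, EPCAM 10.5 and KRT18 265 CPM. The apoptotic libraries of 4 days stood apart. They held 18183 and 18676 genes with a count, against 21275 to 24530 in the other libraries. All results were relative abundances in bulk RNA, in which fewer cells of a kind and less RNA per cell cannot be told apart.

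Most cluster genes had few counts or none in these libraries. Of the 71 genes, 51 had a count in at least 1 library and 20 were at 0 in all 28. A mean of at least 1 CPM in some group was reached by 19 genes. The filter on low counts was passed by 20 genes (28.2%), which were tested. Of all 58735 genes of any type, 23006 were at 0 in all libraries and 17191 were tested. The tested share of the members was thus near that of all genes of any type. All members are protein-coding, however, and only 19951 of the 58735 genes are. The tested share of protein-coding genes alone is not given here, so the members cannot be called typical of their gene type. All members together made 0.00662% to 0.0205% of a library's counts. The 5 most counted genes held 81.2% of the members' 61284 counts, and the 51 untested genes held 2.12%.

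H2B genes were counted most often. At least 1 CPM was reached by 9 of 18 H2B genes, 3 of 17 H2A genes, 2 of 15 H3 genes, 3 of 15 H4 genes and 2 of 6 H1 genes. By location, 16 of the 55 genes of cluster 1 on chromosome 6, 3 of the 12 of cluster 2 on chromosome 1, 0 of the 3 of cluster 3 and the lone cluster 4 gene were tested. The share also differed with the gene model in the annotation. Of 38 genes whose model includes UTR, 14 were tested, and of 33 genes with only a coding part in the model, 6 were. A poly(A) signal (AATAAA or ATTAAA) within 40 bases of an annotated transcript end was present in 23 genes, 11 of them tested, and absent in 48 genes, 9 of them tested. At least 50% of the 100-base windows of 15 genes occurred in another gene as well. None of those 15 was tested, and reads of such near-identical copies could have been split or dropped by the authors' counting, which the sources used here do not describe.

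**Figure D1:**
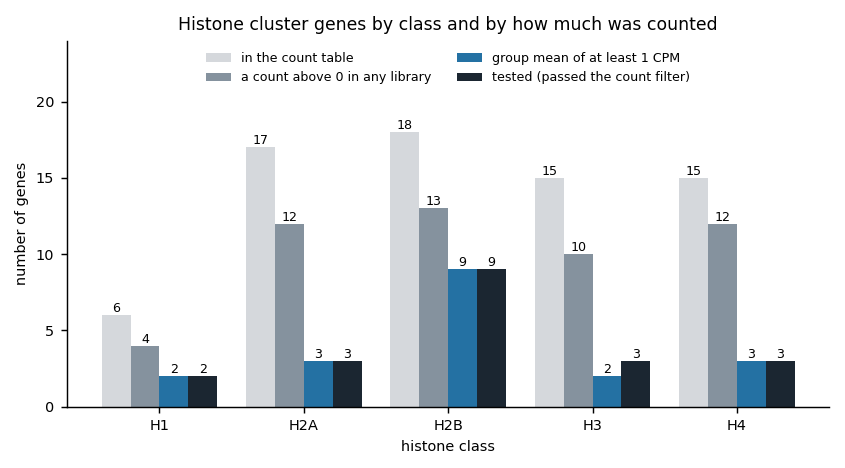
Number of histone cluster genes per histone class (x axis), as bars for all genes in the count table, genes with a count in any library, genes with a group mean of at least 1 CPM, and genes tested. H2B has 9 of 18 genes tested, the largest number of the 5 classes.

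The most abundant member was HIST1H2BK, an H2B gene, with a mean of 95.7 FPKM (fragments per kilobase of model, scaled to library size, which sets genes of different length side by side). HIST1H1C, the gene of linker histone H1.2, followed with 20.2 FPKM, then HIST1H2BD with 19.6, HIST1H4I with 13.6 and HIST1H2AC with 12.1 FPKM. Below these the level dropped to 2.15 FPKM for HIST2H2AC and 1.92 FPKM for HIST1H4H. The first 2 have models that hold the coding part only, of 381 and 642 bases, which sets what their counts are divided by. Of HIST1H2BK's windows 28.4% also occur in H2BFS, so its counts may include reads of that gene or lack reads given to it. Of the 20 tested genes, 6 had their highest group mean in apoptotic cells at 4 days, 4 in apoptotic cells at 5 hours and 3 in apoptotic cells at 2 days. The same count was not made over all genes, so no trait of the members can be read from it. Some peaks were near-ties. HIST1H2BC had 2.29 and 2.28 CPM in apoptotic cells at 2 and 4 days and 2.27 CPM in non-apoptotic cells at 2 days. Other peaks were low, such as 1.0 CPM for HIST1H3C, 1.01 for HIST1H2BO and 0.868 for HIST1H3B in apoptotic cells at 5 hours.

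**Figure D2:**
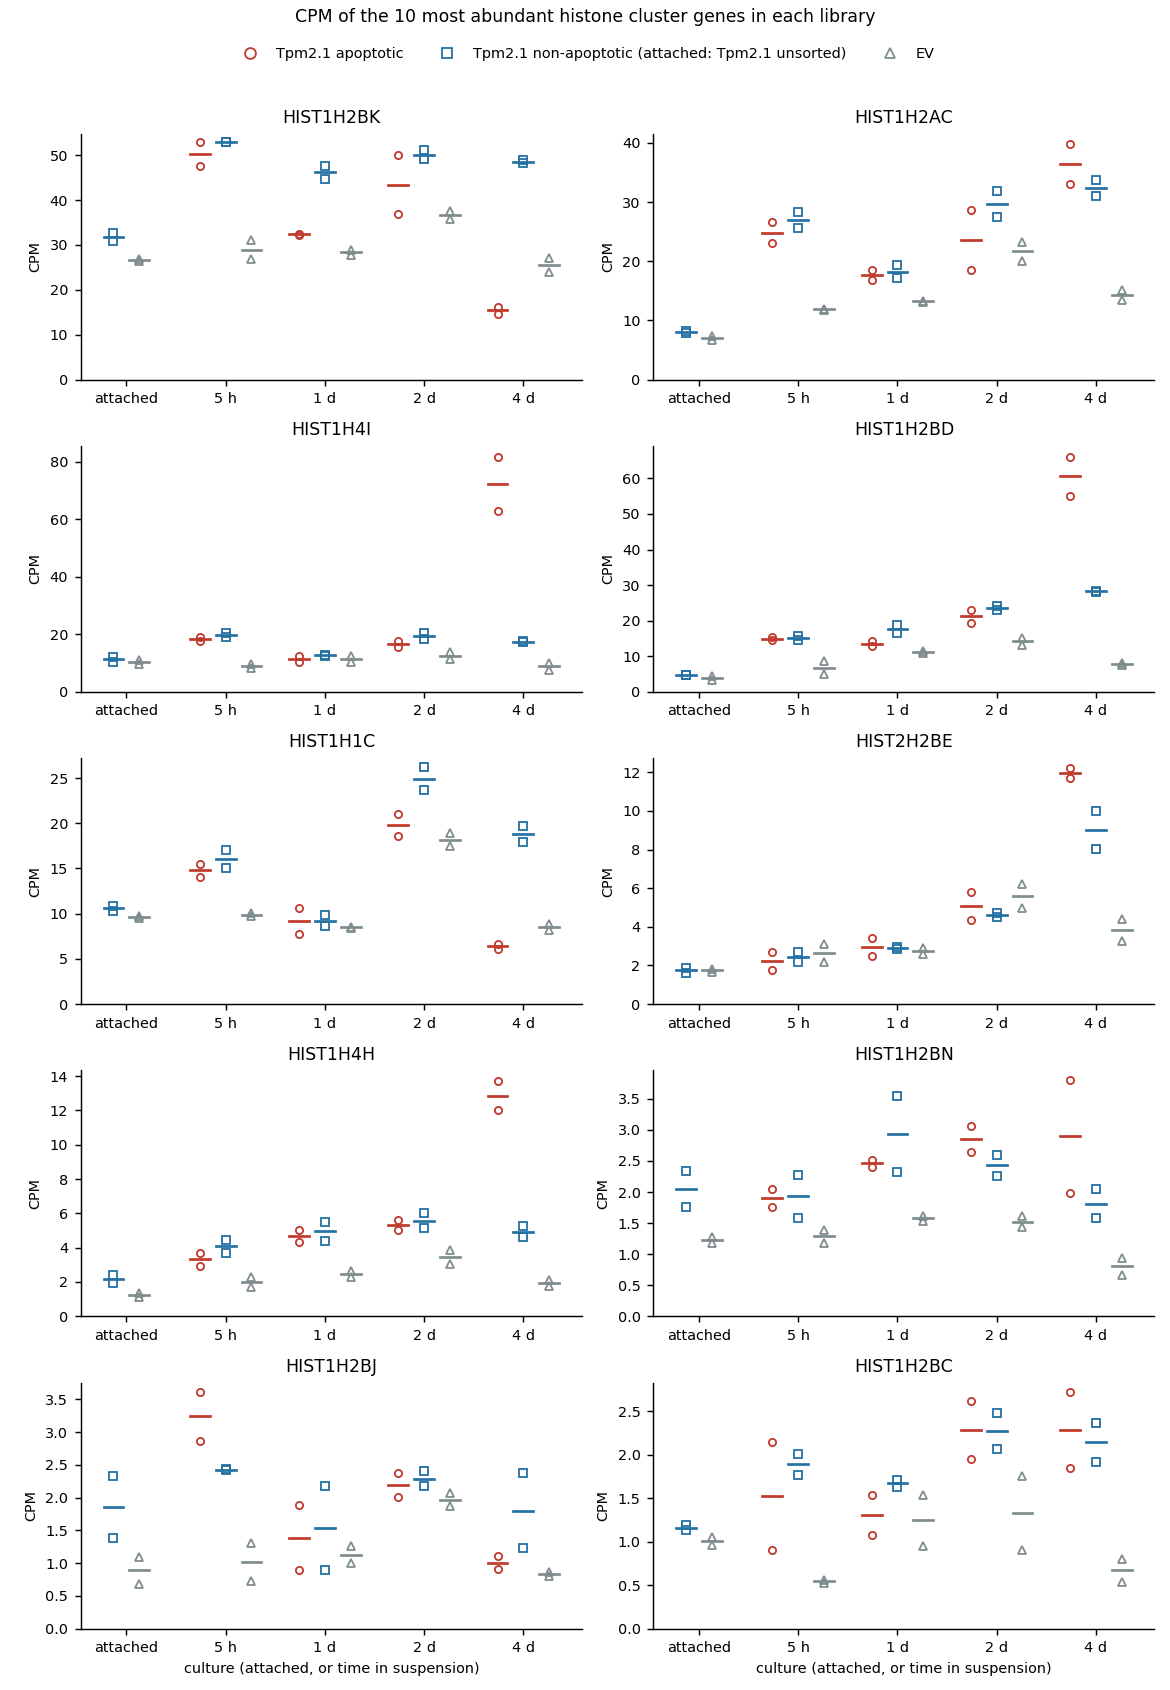
CPM (y axis, linear from 0, scaled per gene) of the 10 most abundant histone cluster genes in all 28 libraries, by culture (x axis: attached, then time in suspension); each symbol is a library and each bar a group mean of 2. HIST1H4I, HIST1H2BD and HIST1H4H are highest in apoptotic cells at 4 days, where HIST1H2BK and HIST1H1C are lowest or near lowest.

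In attached cells the lines differed little in cluster gene RNA. HIST1H2BK had 32.7 and 30.9 CPM in Tpm2.1 cells and 26.8 and 26.4 CPM in EV cells, 0.26 ± 0.095 on the log2 scale (value ± SE throughout, adjusted p = 0.0495, edgeR). HIST1H4H, an H4 gene, had 2.42 and 1.94 CPM in Tpm2.1 cells and 1.37 and 1.14 CPM in EV cells, 0.80 ± 0.26 on the log2 scale (adjusted p = 0.0265, edgeR). HIST1H2BJ had 1.39 and 2.33 CPM in Tpm2.1 cells, against 0.684 and 1.09 CPM in EV cells, and was also called higher (1.06 ± 0.39, adjusted p = 0.0476, edgeR). Their libraries did not overlap between the lines, yet each call stood near the threshold.

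HIST1H2BE was the fourth gene called higher in attached Tpm2.1 cells. It had 6 and 19 counts in the Tpm2.1 libraries and 0 and 1 in the EV libraries, a ratio of 22.4 with a 95% counting interval of 3.66 to 918. Of its exon bases 28.2% are overlapped by a gene on the other strand, AL353759.1, and reads of the 2 cannot be told apart unless strand was used in counting. These 4 of 20 tested genes compare with 20.5% of all 17191 tested genes called in this comparison, 10.4% higher and 10.1% lower. DESeq2 called 2 of the 4, and leaving out 1 attached library left 2 calls without the first Tpm2.1 library, 1 without the second, 0 without the first EV library and 1 without the second. The median of the 20 was 0.25 on the log2 scale, and that of all genes was 0 at 2 decimals. Other abundant members were near equal: HIST1H1C had 10.3 and 10.9 CPM in Tpm2.1 cells and 9.53 and 9.79 CPM in EV cells.

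Suspension of EV cells raised a handful of cluster genes and lowered 2. Averaged over the 4 times and set against attached EV cells, 6 of the 20 tested genes rose and 2 fell, while 66.3% of all tested genes were called (34.2% higher, 32.2% lower). The median of the 20 was 0.09 and that of all genes 0.06. The members were thus called less often than all genes, and their median lay near that of all genes. Other measures moved with EV suspension. Mitochondrial mRNAs took 3.10% to 4.36% of the counts from 5 hours to 2 days and 1.12% and 1.28% at 4 days, against 1.59% and 1.63% in attached EV cells. Nuclear-retained RNAs summed to 1764 to 2569 CPM in EV suspension against 1140 and 1135 CPM attached, MALAT1 rising by 2.74 ± 0.091 on the log2 scale (adjusted p = 1.46e-25, edgeR), and the listed RNAs with no tail to 15.9 to 33.1 CPM against 41.9 and 39.0 CPM. Their part in the values of the cluster genes was not tested.

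The H2B gene HIST1H2BD rose by 1.34 ± 0.15 on the log2 scale (adjusted p = 3.16e-10, edgeR). It had 4.90 and 8.58 CPM at 5 hours, 11.6 and 10.9 at 1 day, 13.2 and 15.1 at 2 days and 8.23 and 7.50 at 4 days, against 3.19 and 4.33 CPM in attached cells. Every suspension library of EV cells stood above both attached libraries, and the level was highest at 2 days.

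HIST1H2AC, the H2A gene next to HIST1H2BC, rose by 1.09 ± 0.13 (adjusted p = 1.16e-09, edgeR). Its values in EV suspension were 12 and 11.7 CPM at 5 hours, 13.1 and 13.3 at 1 day, 20 and 23.3 at 2 days and 15.2 and 13.5 at 4 days, against 6.61 and 7.35 CPM attached. HIST1H2BC itself had 0.528 to 1.75 CPM over the 8 EV suspension libraries and 1.05 and 0.962 CPM in the attached ones, and was not called. The head-to-head pair thus had 1 gene that passed and 1 that did not.

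The other genes that rose in EV suspension were low. HIST2H2BE, an H2B gene, rose by 1.02 ± 0.21 (adjusted p = 5.45e-05, edgeR), with 2.17 to 6.22 CPM in suspension against 1.82 and 1.66 CPM attached. HIST1H4H rose by 0.93 ± 0.22 (adjusted p = 0.000364, edgeR) and HIST4H4, the only member in cluster 4, by 1.17 ± 0.44 (adjusted p = 0.0189, edgeR). The call of HIST4H4 was lost without the second attached EV library or without the first EV library of 4 days. HIST1H2BE had 50 counts over the 8 suspension libraries and 1 count over the 2 attached ones, a ratio of 17.5 with an interval of 3.01 to 706, and its call was lost without the first attached EV library.

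Both genes that fell in EV suspension were low as well. HIST1H1E, the gene of linker histone H1.4, fell by 2.26 ± 0.41 (adjusted p = 7.19e-06, edgeR). It had 0.993 and 1.12 CPM at 5 hours and 0.13 to 0.312 CPM in the 6 later libraries, against 1.46 and 1.36 CPM attached. HIST1H3B, an H3 gene, fell by 2.06 ± 0.72 (adjusted p = 0.0117, edgeR). It had 8 and 12 counts at 5 hours, 4 and 4 at 1 day, 0 and 0 at 2 days and 0 and 1 at 4 days, against 8 and 7 counts attached. With 0 counts at 2 days, the size of the fitted fall depends on the prior count. The abundant HIST1H2BK (0.15 ± 0.078, adjusted p = 0.0793, edgeR) and HIST1H4I, with 7.50 to 13.8 CPM in suspension against 9.53 and 10.9 attached, were not called. When 4 days was left out of the mean, HIST1H2BK (0.23, adjusted p = 0.0138, edgeR), HIST1H1C (0.25, adjusted p = 0.0388) and HIST1H3H (0.98, adjusted p = 0.0104) were called as well.

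At single times, 5 members rose and 0 fell in EV cells at 5 hours, 5 rose and 1 fell at 1 day, 10 rose and 2 fell at 2 days, and 3 rose and 3 fell at 4 days. Of all tested genes, 26.0% rose and 28.7% fell at 5 hours (54.7% called), 32.7% and 30.3% at 1 day (63.0%), 33.3% and 31.3% at 2 days (64.6%), and 31.6% and 28% at 4 days (59.5%). The genes added at 2 days included HIST1H1C, which had 18.9 and 17.5 CPM, against 9.53 and 9.79 CPM in attached EV cells and 8.90 and 8.17 CPM in EV cells at 4 days. Its level was thus high at 2 days alone among the EV groups.

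In Tpm2.1 cells, the non-apoptotic fraction showed the wider rise of cluster gene RNA relative to attached cells. Time in culture cannot be told apart from suspension here either. The labels describe annexin V separation for the suspended Tpm2.1 cells only, so separation goes with suspension as well. Of the 20 tested genes 9 rose and 2 fell in the mean of the 4 times, beside 61.4% of all genes called (30.8% higher, 30.6% lower). The H2B genes HIST1H2BD, HIST2H2BE, HIST1H2BC and HIST1H2BK rose, as did the H2A gene HIST1H2AC, the H3 gene HIST1H3H, the H4 genes HIST1H4H and HIST1H4I and the linker gene HIST1H1C. HIST1H2BD had 15.8 and 14.6 CPM at 5 hours, 18.8 and 16.6 at 1 day, 23.0 and 24.1 at 2 days and 28.2 and 28.4 at 4 days, against 4.84 and 4.78 CPM in attached Tpm2.1 cells. This was 2.09 ± 0.13 on the log2 scale (adjusted p = 4.91e-17, edgeR), and the group means rose with each time.

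HIST1H2AC had 28.3 and 25.6 CPM at 5 hours, 19.3 and 17.2 at 1 day, 27.5 and 31.9 at 2 days and 33.8 and 31.1 at 4 days, against 7.95 and 8.24 CPM attached, a rise of 1.69 ± 0.12 (adjusted p = 1.23e-15, edgeR). HIST2H2BE had 2.70 and 2.16 CPM at 5 hours, 2.95 and 2.86 at 1 day, 4.52 and 4.71 at 2 days and 8.01 and 9.99 at 4 days, against 1.85 and 1.63 CPM attached (1.25 ± 0.20, adjusted p = 1.19e-06, edgeR). All suspension libraries of both genes lay above the attached ones, but HIST1H2AC was lowest at 1 day while HIST2H2BE was highest at 4 days. Its head-to-head partner HIST2H2AC moved the other way. It had 0.205 to 1.35 CPM in non-apoptotic cells and 1.80 and 1.32 CPM in attached cells, and fell by 1.04 ± 0.35 (adjusted p = 0.0094, edgeR), although 1 non-apoptotic library lay within the attached range. The fall of HIST2H2AC was not called without the 4 days values (adjusted p = 0.0765) or without the first attached Tpm2.1 library.

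HIST1H2BK had 52.9 and 52.9 CPM at 5 hours, 47.7 and 44.8 at 1 day, 49.2 and 51.1 at 2 days and 48.3 and 48.9 at 4 days in non-apoptotic cells, against 32.7 and 30.9 CPM attached. The rise of 0.64 ± 0.074 (adjusted p = 1.29e-09, edgeR) was present from 5 hours on. HIST1H4I had 20.5 and 19.1 CPM at 5 hours, 12.9 and 12.5 at 1 day, 18.5 and 20.4 at 2 days and 17.3 and 17.5 at 4 days, against 12.1 and 10.4 CPM attached (0.60 ± 0.11, adjusted p = 8.23e-06, edgeR). HIST1H1C had 17.0 and 15.1 CPM at 5 hours, 8.60 and 9.81 at 1 day, 23.7 and 26.2 at 2 days and 17.9 and 19.7 at 4 days, against 10.3 and 10.9 CPM attached (0.62 ± 0.099, adjusted p = 1.04e-06, edgeR). At 1 day HIST1H4I and HIST1H1C were near their attached levels, and HIST1H1C lay below it in both libraries. HIST1H4H had 3.70 to 6.01 CPM over the 8 non-apoptotic libraries, against 2.42 and 1.94 CPM attached (1.16 ± 0.18, adjusted p = 5.94e-07, edgeR). HIST1H2BC had 1.63 to 2.48 CPM, against 1.19 and 1.13 CPM attached (0.77 ± 0.29, adjusted p = 0.0212, edgeR), and was not called without either attached library.

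HIST1H1E fell in this line too, by 2.39 ± 0.36 (adjusted p = 2.65e-07, edgeR). It had 0.652 and 0.733 CPM at 5 hours, 0.591 and 0.542 at 1 day, 0.384 and 0.310 at 2 days and 0.0685 and 0.288 at 4 days, against 2.30 and 1.90 CPM attached. The 2 linker genes that could be tested therefore moved apart, with HIST1H1C called higher and HIST1H1E called lower. At single times the calls were 7 higher and 1 lower at 5 hours, 5 and 1 at 1 day, 9 and 2 at 2 days, and 9 and 3 at 4 days, for the members. Over all genes 20.7% were higher and 24.5% lower at 5 hours (45.2% called), 27.8% and 27.0% at 1 day (54.8%), 29.2% and 27.6% at 2 days (56.8%), and 32.6% and 29.8% at 4 days (62.4%).

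**Figure D3:**
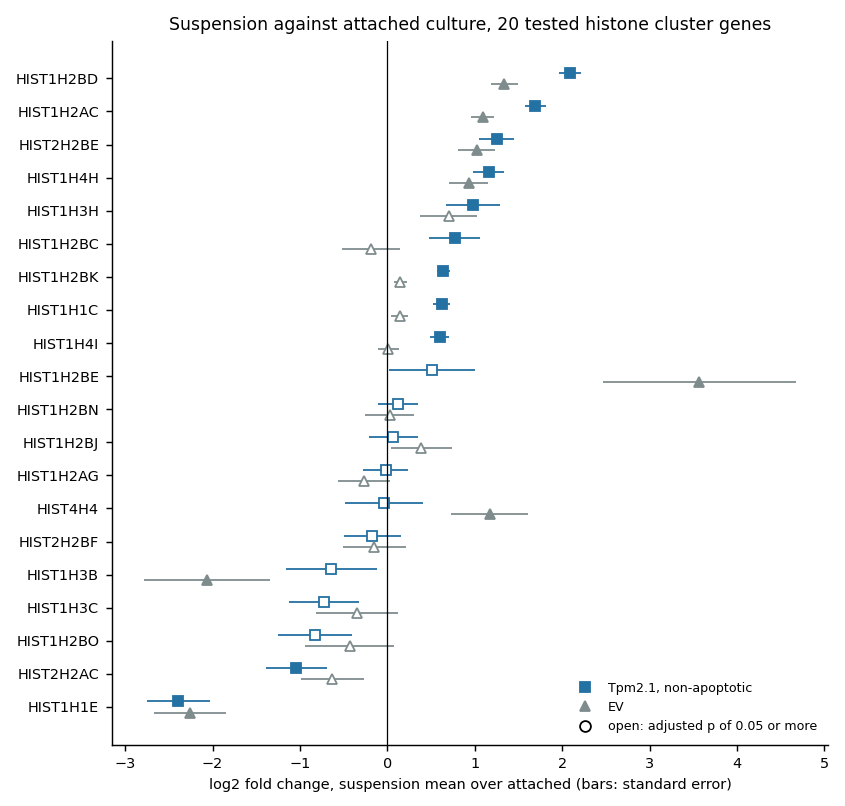
Log2 fold change (x axis, with standard error) of the 20 tested histone cluster genes in suspension over attached culture, as the mean of 4 times, for non-apoptotic Tpm2.1 cells (squares) and EV cells (triangles); open symbols have an adjusted p of 0.05 or more. HIST1H2BD reads 2.09 in Tpm2.1 and 1.34 in EV cells, and HIST1H1E reads -2.39 and -2.26; the EV value of HIST1H2BE rests on 1 count in attached cells.

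The test of the difference between these responses called 5 members, all with a larger rise in Tpm2.1 cells, beside 33.5% of all genes (17.0% larger, 16.6% smaller). On the log2 scale the responses differed by 0.75 ± 0.21 for HIST1H2BD (adjusted p = 0.0042, edgeR), 0.60 ± 0.18 for HIST1H2AC (adjusted p = 0.00671) and 0.60 ± 0.16 for HIST1H4I (adjusted p = 0.00325). They differed by 0.48 ± 0.11 for HIST1H2BK (adjusted p = 0.00051) and 0.47 ± 0.14 for HIST1H1C (adjusted p = 0.00937). Without the second attached EV library 1 call was left, that of HIST1H2BK. Without the 4 days values HIST1H2BD (adjusted p = 0.0587) and HIST1H1C (adjusted p = 0.121) missed the threshold, and HIST1H2BE, which rests on 1 count in attached EV cells, was called with the smaller response in Tpm2.1 cells (adjusted p = 0.0205). MALAT1 differed between the responses by -2.77 ± 0.11 (adjusted p = 6.16e-21, edgeR), with 2.74 in EV and -0.04 in non-apoptotic Tpm2.1 cells. Mitochondrial mRNAs took 1.22% to 1.62% of the counts in non-apoptotic Tpm2.1 cells, against 2.14% and 2.18% in attached Tpm2.1 cells. The part of these measures in the difference was not tested. If the EV cells were not separated on annexin V, as the labels read, line and separation cannot be told apart in it.

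Set directly against EV cells at the same times, non-apoptotic Tpm2.1 cells had more RNA of 12 of the 20 tested genes and less of 1, beside 60.5% of all genes called, 28.6% higher and 32.0% lower. The median of the 20 was 0.69 and that of all genes -0.03. HIST1H2BC was higher by 1.17 ± 0.21 (adjusted p = 6.4e-06, edgeR), HIST1H2BD by 1.10 ± 0.075 (adjusted p = 9.18e-16) and HIST1H2BE by 1.03 ± 0.36 (adjusted p = 0.0137). HIST1H2BC had 1.63 to 2.48 CPM in the 8 non-apoptotic libraries and 0.528 to 1.75 CPM in the 8 EV libraries. HIST1H2BK had 44.8 to 52.9 CPM in non-apoptotic cells and 24 to 37.6 CPM in EV cells, with no overlap (0.74 ± 0.049, adjusted p = 3.53e-16, edgeR). The call of HIST1H2BE was lost without 4 days (adjusted p = 0.301) or without the second non-apoptotic library of 5 hours.

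HIST4H4 was the gene lower in non-apoptotic Tpm2.1 than in EV suspension cells. It had 5 and 8 counts at 5 hours, 2 and 7 at 1 day, 16 and 12 at 2 days and 8 and 7 at 4 days in non-apoptotic cells. The EV counts were 17 and 9 at 5 hours, 17 and 23 at 1 day, 28 and 19 at 2 days and 19 and 8 at 4 days, a fall of 1.37 ± 0.29 on the log2 scale (adjusted p = 9.68e-05, edgeR). At single times 8 members were higher and 1 lower at 5 hours, 5 and 1 at 1 day, 7 and 0 at 2 days, and 11 and 0 at 4 days. Over all genes 20.4% were higher and 20.4% lower at 5 hours (40.9% called), 19.7% and 20.3% at 1 day (40%), 23.3% and 21.1% at 2 days (44.4%), and 20.2% and 23.8% at 4 days (43.9%). The limit on line and separation holds for these values as well.

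Most listed genes that accompany histone synthesis went down in both suspension comparisons, in which some cluster genes rose and others, such as HIST1H1E, fell. In non-apoptotic Tpm2.1 cells 33 of 34 listed S phase and DNA replication genes fell relative to attached cells and 0 rose, with a median log2 fold change of -0.98; the median of the 20 tested cluster genes was 0.31 and that of all genes 0.03. TYMS (thymidylate synthase) fell by 1.74 ± 0.047 (adjusted p = 2.86e-28, edgeR), RRM2 (a ribonucleotide reductase subunit) by 1.69 ± 0.041 (adjusted p = 1.02e-29) and CCNA2 (cyclin A2) by 1.72 ± 0.047 (adjusted p = 4.38e-28). In EV suspension all 34 fell, with a median of -0.84, and RRM2, CCNA2 and TYMS each fell by 1.64. The summed CPM of the list was 1260 to 4415 in non-apoptotic cells against 5322 and 5343 in attached Tpm2.1 cells. It was 2603 to 3628 in EV suspension against 5634 and 5687 in attached EV cells.

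The factors that make histone mRNA fell with them in part. Of 21 genes for histone transcription and 3′ end processing, 2 rose and 15 fell in non-apoptotic cells (median -0.19), and 2 rose and 18 fell in EV suspension (median -0.42). SLBP fell by 0.79 ± 0.042 in non-apoptotic cells (adjusted p = 4.13e-19, edgeR) and by 0.92 ± 0.042 in EV suspension (adjusted p = 2.81e-21). NPAT, the transcriptional coactivator of the clusters, had log2 fold changes of 0.08 ± 0.059 in non-apoptotic cells (adjusted p = 0.246, edgeR) and -0.20 ± 0.061 in EV suspension (adjusted p = 0.00551). In the test of the difference between the lines, 11 of the 21 had the larger value in Tpm2.1 cells and 0 the smaller, among them CPSF3, the endonuclease of the cut, at 0.38 ± 0.076 (adjusted p = 0.000112, edgeR).

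Of 16 cleavage and polyadenylation genes, 2 rose and 10 fell in non-apoptotic cells, and 3 rose and 10 fell in EV suspension. Of 5 tested genes for histone mRNA decay, 1 rose and 4 fell in either line. Of all tested genes, 30.8% rose and 30.6% fell in non-apoptotic cells, and 34.2% and 32.2% in EV suspension. Of 12 histone chaperones, 0 rose and 8 fell in non-apoptotic cells, and 1 rose and 8 fell in EV suspension.

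Histone variant genes outside the clusters, went down too. Their mRNAs are mostly polyadenylated, although H2AFX also yields a stem-loop mRNA and CENPA is regulated over the cell cycle. Of 10 tested, 1 rose and 8 fell in non-apoptotic cells (median -0.64), and 1 rose and 9 fell in EV suspension (median -0.47). CENPA, the centromeric H3 variant, fell by 1.66 ± 0.054 in non-apoptotic cells (adjusted p = 9.02e-26, edgeR) and by 1.30 ± 0.053 in EV suspension (adjusted p = 1.31e-22). H2AFX, the H2A variant phosphorylated at DNA breaks, fell by 1.63 ± 0.049 in non-apoptotic cells (adjusted p = 9.28e-27, edgeR) and by 1.22 ± 0.05 in EV suspension (adjusted p = 1.33e-22). H1F0, the linker variant of cells at rest, rose by 0.22 ± 0.044 in non-apoptotic cells (adjusted p = 4.65e-05, edgeR) and fell by 0.18 ± 0.043 in EV suspension (adjusted p = 0.000472). The lists were chosen with earlier results of these data known, and their counts describe these libraries.

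**Figure D4:**
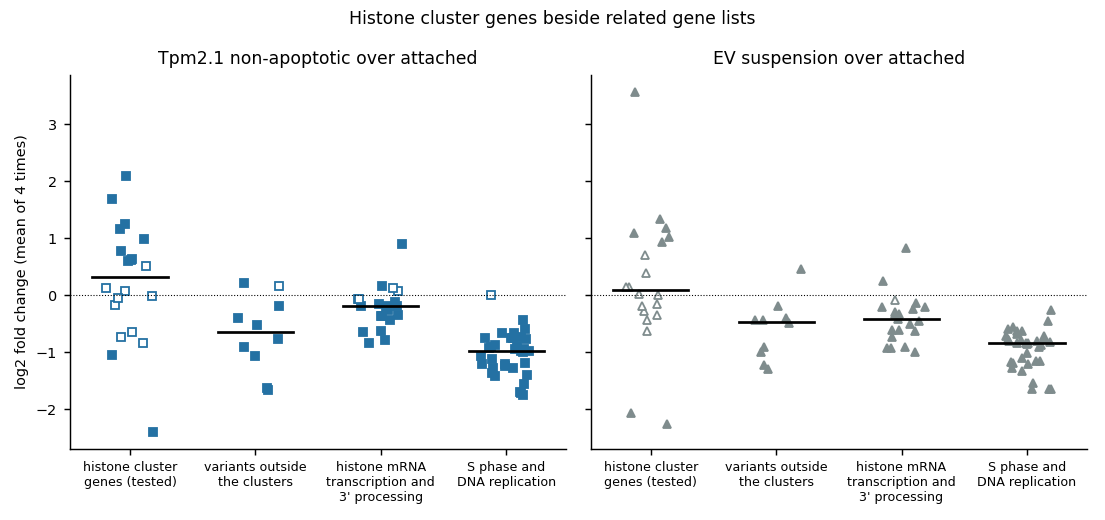
Log2 fold change (y axis, mean of 4 times) of each gene in 4 lists (x axis) for non-apoptotic over attached Tpm2.1 cells (left, squares) and EV suspension over attached EV cells (right, triangles); filled symbols passed the test, black lines are medians, horizontal scatter has no meaning. The cluster genes spread on both sides of 0 with medians of 0.31 and 0.09, while the S phase genes lie below 0 with medians of -0.98 and -0.84, apart from 1 near 0 on the left.

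Between the fractions of Tpm2.1 cells, at most 1 of the 20 tested cluster genes was called at any single time before 4 days. In the mean without 4 days, HIST4H4 was higher in apoptotic cells by 1.27 (adjusted p = 0.00343, edgeR). HIST1H2BK was lower in that mean, at -0.26 (adjusted p = 0.00016, edgeR). At 5 hours 0 of the 20 tested genes were called by edgeR and 0 by DESeq2, with 1 at an unadjusted p below 0.05, while 21.4% of all genes were called (9.66% higher, 11.8% lower). At 1 day HIST1H2BK was lower in apoptotic cells, with 32.4 and 32.3 CPM against 47.7 and 44.8 CPM in non-apoptotic cells (fell by 0.51 ± 0.097, adjusted p = 0.000185, edgeR), when 19.3% of all genes were called (7.99% higher, 11.3% lower). At 2 days HIST1H1C was lower, with 18.6 and 21.0 CPM in apoptotic and 23.7 and 26.2 CPM in non-apoptotic cells (fell by 0.33 ± 0.12, adjusted p = 0.0471, edgeR), and 16.6% of all genes were called (6.92% higher, 9.71% lower). DESeq2 called 0 members at 2 days.

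Apart from these calls, no abundant member was called between the fractions at a single time over that period. Not all of their values overlapped: HIST1H2BD had 18.8 and 16.6 CPM in non-apoptotic cells at 1 day, above both apoptotic libraries. HIST1H2BD had 15.4 and 14.5 CPM at 5 hours, 14.3 and 12.8 at 1 day and 19.4 and 23.1 at 2 days in apoptotic cells, and HIST1H4I had 19.0 and 17.8, then 12.6 and 10.3, then 15.5 and 17.6 CPM. HIST1H2AC had 23.1 and 26.6 CPM at 5 hours, 16.9 and 18.5 at 1 day and 18.6 and 28.6 at 2 days. At 2 days HIST1H2BK had 36.8 and 50.1 CPM in apoptotic cells, against 49.2 and 51.1 CPM in non-apoptotic cells. Among the lower H2B genes, HIST1H2BN had 1.76 to 3.80 CPM in the 8 apoptotic libraries and 1.58 to 3.55 CPM in the non-apoptotic ones, and HIST1H2BJ had 0.889 to 3.61 and 0.887 to 2.43 CPM in these fractions. Both genes overlapped between the fractions and were called at none of the 4 times.

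At 4 days 4 of the 20 were higher and 4 lower in apoptotic cells, and 72.1% of all genes were called, 35.3% higher and 36.8% lower. HIST1H4I, an H4 gene, had 62.9 and 81.7 CPM in apoptotic cells and 17.3 and 17.5 CPM in non-apoptotic cells, a 4.15-fold difference (2.05 ± 0.13, adjusted p = 2.58e-17, edgeR). HIST1H2BD had 55.1 and 66.0 CPM in apoptotic cells and 28.2 and 28.4 CPM in non-apoptotic cells (1.10 ± 0.13, adjusted p = 5.81e-10, edgeR). HIST1H4H had 12 and 13.7 CPM in apoptotic cells and 5.27 and 4.60 CPM in non-apoptotic cells (1.38 ± 0.20, adjusted p = 1.3e-07, edgeR). For all 3 genes the apoptotic libraries of 4 days were the highest of the 28. HIST1H2BE was the fourth, with 33 and 41 counts in apoptotic and 17 and 20 in non-apoptotic cells (1.38 ± 0.52, adjusted p = 0.0173, edgeR).

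The genes lower in apoptotic cells at 4 days included the most abundant member. HIST1H2BK had 14.7 and 16.1 CPM in apoptotic cells and 48.3 and 48.9 CPM in non-apoptotic cells, a fold of 0.317 (fell by 1.66 ± 0.12, adjusted p = 5.94e-16, edgeR). HIST1H1C had 6.07 and 6.67 CPM in apoptotic cells and 17.9 and 19.7 CPM in non-apoptotic cells (fell by 1.56 ± 0.15, adjusted p = 8.15e-12, edgeR). HIST1H3C had 0 and 0 counts in apoptotic cells and 1 and 7 in non-apoptotic cells, and HIST1H2BO had 0 and 0 against 5 and 6 counts. The 95% counting interval of the ratio of non-apoptotic over apoptotic counts, scaled for library size, began at 1.31-fold for HIST1H3C and 1.92-fold for HIST1H2BO and had no upper end. Most counts of HIST1H3C came from 1 of the non-apoptotic libraries.

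The direction at 4 days went, with exceptions, with the gene model and with base composition. All 6 tested genes whose model holds the coding part only had negative values, 4 of them called, and 12 of the 14 with UTR in the model had positive ones, 4 of them called. Of those 6 genes, 3 had 0 counts in both apoptotic libraries, so that only the direction of their values can be read. GC content was taken from the longest annotated transcript of each gene. It was 61.2% and 57.5% for HIST1H2BK and HIST1H1C, whose models are coding-only, against 46.8%, 47.5% and 43.8% for HIST1H4I, HIST1H2BD and HIST1H4H. Other genes of low GC went the other way, without being called. HIST1H2AG (46.8% GC) had 0.634 and 0.833 CPM in apoptotic and 1.10 and 1.65 CPM in non-apoptotic cells. HIST1H2BJ (49.1% GC) had 0.906 and 1.11 against 1.23 and 2.37 CPM. After counts of all genes were corrected for GC content in each library, HIST1H2BK had 0.30 (adjusted p = 0.0452, edgeR) and so turned to higher in apoptotic cells, and HIST1H1C had -0.20 (adjusted p = 0.285). HIST1H4I kept 1.88 (adjusted p = 6.79e-16), HIST1H2BD 1.00 (adjusted p = 6.07e-09) and HIST1H4H 0.91 (adjusted p = 0.000186). HIST1H2AC, with 39.9 and 33.1 CPM in apoptotic and 33.8 and 31.1 CPM in non-apoptotic cells before correction, was called lower after it (-0.45, adjusted p = 0.00221). HIST1H3C (-5.32, adjusted p = 0.15) and HIST1H2BO (-5.76, adjusted p = 0.103) were no longer called after it, with fitted values about as large as before; at 0 counts in both apoptotic libraries their size depends on the prior count.

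**Figure D5:**
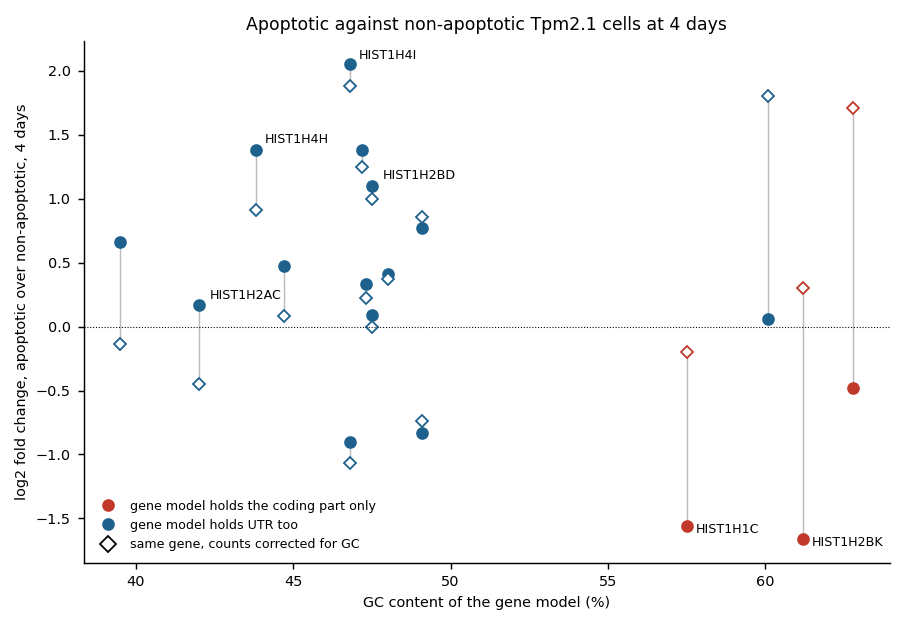
Log2 fold change of apoptotic over non-apoptotic Tpm2.1 cells at 4 days (y axis) against GC content in percent (x axis) for 17 tested histone cluster genes. The axis names the gene model, but GC content is that of the longest annotated transcript of each gene. Circles are the values as fitted and open diamonds the same genes after GC correction. Left out are 3 genes with 0 counts in both apoptotic libraries. HIST1H2BK moves up to 0.30 and HIST1H1C to -0.20 with the correction, while HIST1H4I stays at 1.88.

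Other measures moved with the 4 days libraries. Mitochondrial mRNAs took 6.40% and 5.86% of the counts in apoptotic cells at 4 days and 1.25% and 1.55% in non-apoptotic cells. They were also raised at earlier times, with 2.67% to 5.34% in the 6 apoptotic libraries of 5 hours to 2 days and 1.22% to 1.62% in all 8 non-apoptotic libraries. The listed RNAs with no poly(A) tail outside the clusters summed to 0.634 and 1.30 CPM in apoptotic cells at 4 days and 24.9 and 21.4 CPM in non-apoptotic cells. The nuclear-retained MALAT1 was higher by 2.65 ± 0.10 in apoptotic cells at 4 days (adjusted p = 6.78e-24, edgeR) and 6 of the 7 tested nuclear-retained RNAs were higher and 0 lower. Of the 10 histone variant genes outside the clusters 0 were higher and 7 lower; H2AFX fell by the most among the variants named (4.03 ± 0.14, adjusted p = 2.13e-25, edgeR). Of the 34 S phase genes 12 were higher and 17 lower, of the 21 transcription and 3′ end genes 9 were higher and 8 lower, and SLBP was higher by 0.59 ± 0.063 (adjusted p = 7.81e-11, edgeR). Their part in the values of the cluster genes was not tested.

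Averaged over the 4 times, 3 of the 20 were higher and 3 lower in apoptotic than in non-apoptotic cells, and 58.0% of all genes were called (25.6% higher, 32.4% lower). HIST4H4 was higher by 1.07 ± 0.31 (adjusted p = 0.00289, edgeR). It had 12 and 15 counts at 5 hours, 13 and 7 at 1 day, 21 and 22 at 2 days and 4 and 12 at 4 days in apoptotic cells, against the non-apoptotic counts given above. HIST2H2BF (0.54 ± 0.23, adjusted p = 0.0413) and HIST1H4I (0.39 ± 0.068, adjusted p = 5.17e-06) were the others called higher, and HIST1H3C (fell by 1.47 ± 0.56, adjusted p = 0.0253), HIST1H2BK (fell by 0.61 ± 0.05, adjusted p = 1.65e-13) and HIST1H1C (fell by 0.50 ± 0.068, adjusted p = 3.91e-08) those called lower. After GC correction HIST1H2BK had -0.21 (adjusted p = 0.00142, edgeR) and HIST1H1C -0.22 (adjusted p = 0.00823) in this mean, HIST1H2AC was called lower (-0.22, adjusted p = 0.00437), and HIST1H3C (adjusted p = 0.118) and HIST2H2BF (adjusted p = 0.0557) were not called. Without 4 days, HIST4H4 (1.27, adjusted p = 0.00343) and HIST1H2BK (-0.26, adjusted p = 0.00016) remained called, and HIST1H4I turned to -0.16 (adjusted p = 0.114). Without the second apoptotic library of 4 days 3 of the 6 calls were left, those of HIST1H4I, HIST1H2BK and HIST1H1C. The call of HIST1H3C also depended on the first apoptotic and the second non-apoptotic library of 4 days, and that of HIST2H2BF was lost in 10 of the fits that left out 1 library.

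The change of the fraction difference between 5 hours and 4 days was tested directly and called 7 members, 3 toward higher and 4 toward lower in apoptotic cells, beside 66.9% of all genes (31.4% and 35.5%). The difference grew by 2.16 ± 0.18 for HIST1H4I (adjusted p = 2.46e-13, edgeR), by 1.67 ± 0.30 for HIST1H4H (adjusted p = 5.56e-06) and by 1.12 ± 0.19 for HIST1H2BD (adjusted p = 1.96e-06). It fell by 1.58 ± 0.15 for HIST1H2BK (adjusted p = 2.94e-12, edgeR) and by 1.45 ± 0.20 for HIST1H1C (adjusted p = 3.08e-08). After GC correction HIST1H2BK had 0.62 (adjusted p = 0.00131) and HIST1H1C 0.09 (adjusted p = 0.752), both with the opposite sign. Corrected instead for gene length, 11 members were called, 7 toward higher and 4 toward lower. That correction also moved the median of all 17191 genes from -0.05 to 0.22. It gave 6501 genes toward higher and 5348 toward lower, against 5397 and 6109 without it.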

How the data were processed

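Poly(A) RNA of 28 libraries in 14 groups of 2 was analysed, and groups came from the sample labels. Per the labels' protocols mRNA was taken with poly-T beads. The authors deposited whole-number read counts per gene, on hg38 per the submitters' processing notes; no label or header names the aligner, the counter or how strand and multiply matching reads were handled. FPKM values, also deposited, equal the counts divided by gene length and a scaled library total, which was checked on the values. FPKM was used only to set genes side by side.

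Counts of 17191 genes passing edgeR's filterByExpr were scaled by TMM and fitted with 14 group means by edgeR 4.0.16 (glmQLFit, glmQLFTest) in R 4.3.3, with Benjamini-Hochberg adjustment over all of them and a threshold of 0.05. Means over times weight the 4 times equally, SE is the log2 fold change over the root of F, and values after ± are SE unless marked otherwise. The tests were tried on simulated counts first. Intervals and floors (3 counts) cover counting error only. Libraries are titled biological replicates, and nothing more says whether cultures were separate, so p-values measure the spread between these samples.

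Alternatives were DESeq2 1.42.0, its size factors, library totals without TMM, no filter, protein-coding genes alone, a replicate block, corrections for GC content and for gene length (a lowess over all genes per library), means without 4 days, the libraries of each comparison alone and each library left out. A fit without the apoptotic libraries of 4 days was added after seeing the data. The genes were matched to GENCODE release 29 for models, stem-loops and overlaps. GC content was that of the longest annotated transcript of each gene.

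The 10 members with the highest mean CPM were named, and in each comparison the 3 called members with at least 1 CPM in a group that changed most in either direction; HIST1H2BO, HIST1H3B, HIST1H3C and other low members were also named after their values were seen. The members and all gene lists were chosen with earlier results of these data known.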

Additional observations from a re-analysis of the deposited data

Results flagged for a closer look

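For 5 members the response to suspension differed between the lines, by edgeR's test of the difference, with the larger rise in Tpm2.1 cells. The differences on the log2 scale were 0.75 for HIST1H2BD, 0.60 for HIST1H2AC, 0.60 for HIST1H4I, 0.48 for HIST1H2BK and 0.47 for HIST1H1C, and 4 of the 5 were not called without the second attached EV library. The difference between the fractions of Tpm2.1 cells changed from 5 hours to 4 days for 7 members, by the same kind of test. The change was 2.16 for HIST1H4I, 1.67 for HIST1H4H and 1.12 for HIST1H2BD, and it was -1.58 for HIST1H2BK, -1.45 for HIST1H1C, -5.93 for HIST1H3C and -6.1 for HIST1H2BO. The last 2 values come from genes with 0 counts in both apoptotic libraries of 4 days, so that their size depends on the prior count and only their direction can be read.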

How the results depend on the processing

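Among the 7 comparisons, the number of members called between the attached lines was 4 and fell to 2 with DESeq2, without a filter, with the GC correction and with the length correction. The change of the fraction difference gave 11 calls (7 toward higher, 4 toward lower) with the length correction, in place of 7. The median of all genes moved from -0.05 to 0.22 with that correction. The mean over times of apoptotic against non-apoptotic cells gave 2 (1 higher, 1 lower) in means without 4 days, in place of 6. Leaving out each library in turn gave 0 to 2 calls between the attached lines, 7 to 10 in EV suspension, 9 to 14 in non-apoptotic against attached cells, 3 to 7 between the fractions, 12 to 13 in non-apoptotic against EV suspension cells, 1 to 6 for the difference between the lines and 6 to 8 for the change of the fraction difference. With the replicate block the numbers were 3, 8, 11, 6, 13, 6 and 8, each within 1.5 times the main one. Same-numbered libraries did not deviate together over all tested genes (correlations of -0.0751 to 0.0541 over 91 pairs of groups). With 2 libraries per group, this cannot show whether same-numbered libraries came from the same culture. In the 7 comparisons signs turned in 4 named values: with the GC correction the change of the fraction difference was 0.62 for HIST1H2BK and 0.09 for HIST1H1C, with the length correction HIST1H2BK had -0.23 in EV suspension, and in means without 4 days HIST1H4I had -0.16 between the fractions. At 4 days alone HIST1H2BK also turned, to 0.30 with the GC correction. The cause was not tested. Scaling by library totals moved the median of all genes to 0.21 in EV suspension, with 7258 genes higher and 4343 lower against 5875 and 5528 with TMM, and to 0.13 in non-apoptotic cells, with 6340 and 4368 against 5299 and 5256. At least 5 CPM in a group mean was reached by 7 members. Of the 51 untested genes, 44 never exceeded 10 counts in a library, which is too few to test; whether low abundance or the handling of shared reads set those counts was not tested.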

Other observations

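A run of 15 neighbouring members at chr6:26188765-26273356 (hg38), HIST1H4D to HIST1H2BI, had 19 counts in total among the 487671141 counts of all 28 libraries, and 11 of the 15 had 0. The members on either side were counted far more often, with 324 counts for HIST1H2BE and 1892 for HIST1H4H. Within the run HIST1H3D and HIST1H2AD overlap another annotated gene, and how the authors' counting treated such reads is not given in the sources used here.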
